A study of Homo sapiens with 12 samples.

Results

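ZNF696 and 8 other zinc-finger genes of the chromosome band 8q24.3 (ZNF623, ZNF707, ZNF251, ZNF34, ZNF517, ZNF7, ZNF250 and ZNF16) were followed across RNA-seq libraries of gastric cancer cells in which another zinc-finger gene, ZNF165, had been lowered or raised. The 9 genes were taken by symbol from a count table of 50868 genes. ZNF696 was chosen on these data, because it was lower in the overexpression libraries and higher in 2 knockdown libraries. Its values in those comparisons are therefore given as a description, with no test, and the other 8 genes were listed for their position in the band.

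The libraries came from MKN28 and MKN45, established lines grown from human gastric adenocarcinomas. There were 4 groups with 3 libraries in each. MKN28 cells carried either a control lentivirus or a lentivirus with an siRNA against ZNF165, and MKN45 cells carried either a control lentivirus or a lentivirus for ZNF165 overexpression. All 4 groups were thus infected with a lentivirus, and the controls are labelled wild type in genotype. Knockdown replicates 2 and 3 carry ZNF166 and ZNF167 in their description but ZNF165 in their genotype, and they were grouped by genotype. Whether the 3 libraries of a group came from separate cultures is not given, so p-values measure only how far these libraries spread, which may be technical. In bulk RNA, fewer cells of a type and less RNA per cell cannot be told apart.

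C2H2 zinc-finger proteins are the most numerous family of human transcription factors. Each finger is a short fold held by a zinc ion that can touch a few bases of DNA, and fingers follow each other in arrays whose combined contacts give a protein its binding sites. Many of these proteins also carry a KRAB domain, which recruits TRIM28 (KAP1) and through it the histone methyltransferase SETDB1 and HP1 proteins, a complex that silences transposable elements and genes. ZNF165 belongs to another subfamily, with a SCAN domain through which such proteins pair with each other, and is made mainly in the testis and in some tumours.

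The 9 genes lie on chromosome 8 within 1661213 bp (GENCODE 29, GRCh38). They form a loose group of 3 and, 1007.0 kb further on, a tight group of 6. ZNF696 (ENSG00000185730) is the first of them, on the plus strand at 143289676 to 143298061. It is followed on the same strand by ZNF623 (143636013 to 143656418) and ZNF707 (143684452 to 143713898). The tight group starts with ZNF251 (144720907 to 144756417, minus strand), ZNF34 (144773114 to 144787345, minus) and ZNF517 (144798876 to 144811169, plus). It ends with ZNF7 (144827464 to 144847509, plus), ZNF250 (144876497 to 144902168, minus) and ZNF16 (144930358 to 144950888, minus).

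In the longest annotated transcripts, 6 of the 9 genes encode a KRAB core motif and 3 (ZNF696, ZNF623 and ZNF16) do not. The encoded proteins differ in length and in their number of C2H2 finger motifs. ZNF707, with 371 residues, has 7 motifs, and ZNF696, with 374 residues, has 9. ZNF517 (492 residues) also has 9, ZNF251 (671) and ZNF34 (560) have 12, and ZNF623 (536) and ZNF250 (560) have 13. ZNF7, with 697 residues the longest of the 9, has 14 motifs, and ZNF16 (682 residues) has 15. The transcripts also differ in GC content, at 64.1% in ZNF696, 63.3% in ZNF517, 61.6% in ZNF707, 52.5% in ZNF34 and 51.1% in ZNF16, against 49.4% in ZNF251, 46.3% in ZNF7, 45.0% in ZNF250 and 43.5% in ZNF623.

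Library totals ranged from 12075813 to 19548445 counts. Levels are given as CPM, counts scaled to a common library size over all 12 libraries with TMM factors, which lay between 0.491 (knockdown replicate 2) and 1.28. Errors are standard deviations over 3 libraries unless stated. ZNF165 itself stood at 11.98, 9.37 and 13.1 CPM in MKN28 controls and 5.35, 4.58 and 3.01 CPM in knockdown libraries (log2 fold change −1.47, SE 0.53, adjusted p = 0.0459, edgeR quasi-likelihood test). That call held in 6 of 14 alternative settings, and with replicate 1 as the only knockdown library the log2 fold change was −1.09 (adjusted p = 0.198, edgeR). It stood at 7.71, 9.08 and 15.6 CPM in MKN45 controls and 94.4, 84.9 and 93.4 CPM with overexpression (log2 fold change 3.09, SE 0.31, adjusted p = 0.0109, edgeR). Of the markers checked, 7 epithelial genes summed to 4224 to 9812 CPM in all groups except the knockdown, where the sum was 15900 to 80430 CPM. Single epithelial markers went both ways there: KRT8 had 133470 to 443431 counts against 46360 to 64125 in MKN28 controls, while CDH1 had 416 to 1460 against 5993 to 8322. EPCAM had 12554, 1940 and 1815 counts in knockdown replicates 1, 2 and 3, against 8675 to 10763 in those controls. The 5 fibroblast genes summed to at most 95.7 CPM in any library, most of it COL1A1, with COL3A1 and DCN at 0 in MKN28 controls. The 5 leukocyte genes summed to 37.1 to 69.4 CPM in the knockdown and 7.51 to 35.4 CPM in its controls, mostly CD68, with PTPRC at no more than 3 counts in any library, and 3 endothelial genes summed to at most 1.69 CPM.

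Some libraries stood apart from their own group. Knockdown replicates 2 and 3 differed from replicate 1, with Spearman correlations across genes between level and transcript GC content of 0.323 and 0.317 against 0.050, where MKN28 controls lay at −0.0615, 0.0793 and −0.108. In these 2 libraries the median gene was 0.37 and 0.36 below the control mean on the log2 scale. Control replicate 2 of each line leaned the same way, at 0.0793 in MKN28 and 0.142 in MKN45, where the other MKN45 controls were at −0.0615 and −0.0417. Called results of the knockdown are given also without replicates 2 and 3. In such a fit the controls alone give the spread, and the lone knockdown library is assumed to vary as they do, so its p-values are no check on the spread of the knockdown.

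ZNF696 was a gene of low level in MKN28 controls, with 46, 71 and 55 counts (2.10, 3.58 and 2.52 CPM). The knockdown libraries held 31, 329 and 209 counts (2.24, 37.6 and 28.6 CPM). Replicate 1 was thus inside the control range, and only replicates 2 and 3 were above it. The group means were 2.73 ± 0.76 CPM in controls and 22.8 ± 18.4 CPM in the knockdown, so the knockdown spread was close to its mean. The fitted log2 fold change was 2.99 (SE 0.86, 7.97-fold). Without replicates 2 and 3, whose descriptions name ZNF166 and ZNF167, it was −0.26, and without replicate 1 it was 3.65.

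In MKN45 controls ZNF696 had 229, 180 and 141 counts (11.3, 11.7 and 7.93 CPM). The ZNF165 overexpression libraries had 22, 32 and 25 counts (0.982, 1.37 and 1.22 CPM). All 3 overexpression libraries lay below all 3 controls, and also below all 6 MKN28 libraries. The fitted log2 fold change was −3.09 (SE 0.30), that is 8.52-fold lower. It lay between −3.25 and −2.84 in 13 alternative settings, which included leaving out each library in turn.

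The control libraries of both lines were also compared, a contrast that shares its libraries with those by which ZNF696 was chosen. A choice of a gene low against MKN45 controls and high against MKN28 controls favours a difference of this sign, so for ZNF696 it is given with no test. ZNF696 stood higher in MKN45 controls, at 10.3 ± 2.06 CPM against 2.73 ± 0.76 CPM in MKN28 controls (n = 3 each). The groups did not overlap, and the log2 fold change was 1.92 (SE 0.41, 3.79-fold), and 1.77 to 2.18 in 13 alternative settings. The level with overexpression in MKN45 (1.19 ± 0.20 CPM) was under that of MKN28 controls.

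**Figure D1:**
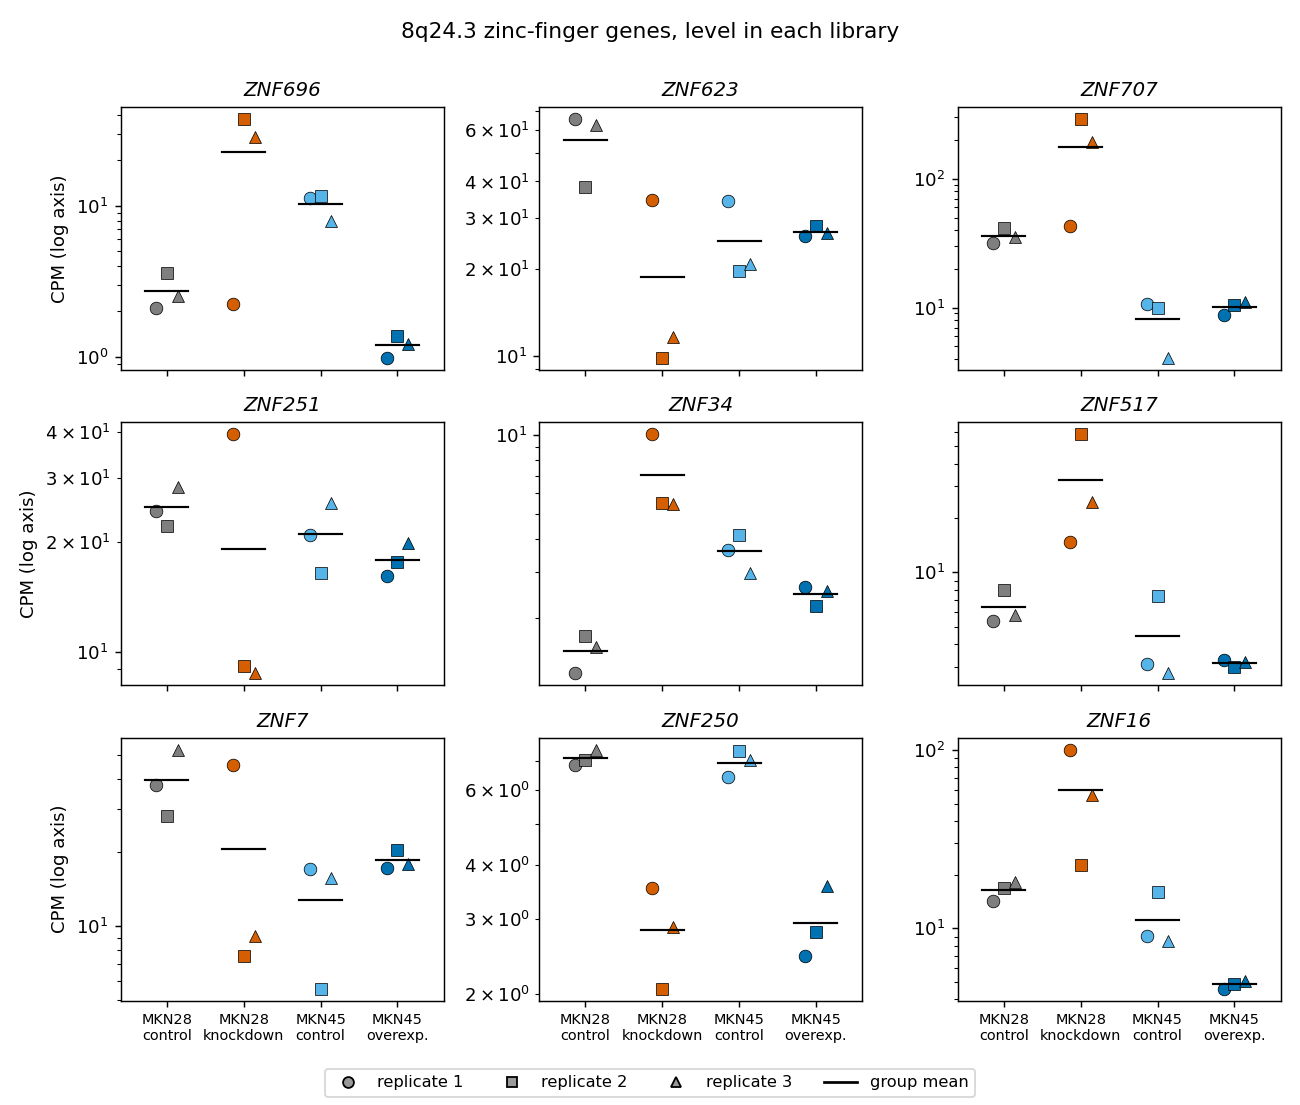
Level of each of the 9 zinc-finger genes in every library, in CPM on a log axis, by group; symbols give the replicate number and bars the group mean. ZNF696 is low in all 3 overexpression libraries and high in knockdown replicates 2 and 3, while knockdown replicate 1 (2.24 CPM) lies among the MKN28 controls.

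ZNF696 was also taken as a share of all counts over the 9 genes, a measure that library scaling cannot move. It made up 1.11%, 2.14% and 1.17% in MKN28 controls (exact binomial 95% intervals from 0.814% to 2.70% over the 3 libraries). The knockdown libraries gave 0.764% (0.520% to 1.08%), 8.47% (7.61% to 9.39%) and 8.39% (7.33% to 9.55%). The share of knockdown replicate 1 was below those of all 3 controls. Its interval overlapped those of control replicates 1 and 3 and lay below that of control replicate 2. The intervals of knockdown replicates 2 and 3 lay above those of the controls. In MKN45 the share was 9.69%, 11.9% and 8.31% in controls, with intervals from 7.04% to 13.6%, and 1.19%, 1.51% and 1.34% with overexpression, with intervals from 0.750% to 2.13%. Without molecular identifiers on the reads, these intervals cover only counting error. They come from the libraries by which ZNF696 was chosen, so they describe its share and test nothing.

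Across the 12 libraries, the genes whose log2 CPM followed ZNF696 most closely, among 15989 genes with a symbol, were HAX1 (Pearson r = 0.953), ATP6AP1-DT (0.947), VPS72 (0.926), TOP1MT (0.921) and FADD (0.920). HAX1 is a mitochondrial protein that protects against apoptosis, VPS72 a subunit of complexes that deposit a histone H2A variant, TOP1MT the mitochondrial topoisomerase and FADD an adaptor of death receptors. The 12 libraries share 4 groups, so these are descriptions of group patterns, and by Spearman correlation only ATP6AP1-DT was again among the first 5. TOP1MT starts 14.7 kb from the start of ZNF696, and its own log2 fold changes were 0.63 in the knockdown and −0.76 in the overexpression, neither past the threshold. Of the 8 other members, ZNF517 came closest to ZNF696 (r = 0.656, rank 2244), followed by ZNF707 (0.522), ZNF34 (0.486) and ZNF16 (0.434). ZNF250 was near 0 (−0.0371), and ZNF251 (−0.609), ZNF7 (−0.673) and ZNF623 (−0.685) went against it.

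In the knockdown, 4 of the other 8 genes were higher at an adjusted p under 0.05 (edgeR quasi-likelihood test over 14939 genes) and 0 were lower. At an unadjusted p under 0.05, 4 were higher and 2 lower, and DESeq2 called 4 higher and 1 lower. Over all genes tested edgeR called 40.8%, with 19.2% higher and 21.6% lower. DESeq2 called 48.8% of them, and 7607 of 14939 had an unadjusted p under 0.05. The median log2 fold change of the 8 genes was 0.70, against −0.20 over all genes. Knockdown and control libraries did not overlap for 6 of the 8, against 53.8% of all genes. The epithelial and leukocyte marker sums given above were also higher in all 3 knockdown libraries than in all MKN28 controls, although CDH1 was lower in all 3 and EPCAM in replicates 2 and 3. The part of these markers in the results was not tested.

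Of the KRAB genes, 3 rose in the knockdown. ZNF707 had 32.0, 41.2 and 35.5 CPM in MKN28 controls and 42.7, 292 and 194 CPM in the knockdown. Replicate 1 stood just above the highest control and replicates 2 and 3 far above it (log2 fold change 2.22, SE 0.63, 4.65-fold, adjusted p = 0.0194, edgeR). Without replicates 2 and 3 the log2 fold change was 0.26 (adjusted p = 0.726, edgeR).

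ZNF517 had 5.40, 8.01 and 5.81 CPM in controls and 14.7, 58.1 and 24.5 CPM in the knockdown, all 3 above the controls. Its log2 fold change was 2.29 (SE 0.61, 4.88-fold, adjusted p = 0.0147, edgeR), and 1.22 (adjusted p = 0.113) without replicates 2 and 3. The pattern of ZNF34 over the replicates was another. It stood at 1.24, 1.71 and 1.56 CPM in controls and at 10.1, 5.49 and 5.48 CPM in the knockdown, with replicate 1 the highest. The log2 fold change was 2.18 (SE 0.56, 4.52-fold, adjusted p = 0.0128, edgeR), and 2.76 with replicate 1 as the only knockdown library. The counts behind ZNF34 were low, at 27 to 34 in controls and 40 to 139 in the knockdown.

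ZNF16, which has no KRAB domain, rose as well. Its level was 14.3, 16.9 and 18.2 CPM in controls and 101, 22.7 and 56.3 CPM in the knockdown. Replicate 1 was again the highest and replicate 2 the lowest (log2 fold change 1.82, SE 0.59, 3.52-fold, adjusted p = 0.0322, edgeR). With replicate 1 as the only knockdown library the log2 fold change was 2.63. ZNF16 and ZNF34 were therefore high in the same library in which ZNF696 lay among the controls.

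The other 4 genes had negative log2 fold changes, and none of them passed the threshold. ZNF623, a protein without KRAB, had 65.7, 38.2 and 62.6 CPM in controls and 34.6, 9.84 and 11.6 CPM in the knockdown (log2 fold change −1.62, SE 0.61, adjusted p = 0.0541, edgeR). ZNF250, a KRAB protein, had 6.86, 7.05 and 7.46 CPM in controls and 3.54, 2.06 and 2.88 CPM in the knockdown (−1.38, SE 0.52, adjusted p = 0.0554, edgeR). Both had all 3 knockdown libraries below all controls, and stood at −0.67 and −0.99 with replicate 1 as the only knockdown library. ZNF7 stood at 37.5, 28.0 and 52.5 CPM in controls and 45.3, 7.55 and 9.17 CPM in the knockdown (−0.97, adjusted p = 0.295, edgeR). ZNF251 stood at 24.28, 22.1 and 28.4 CPM in controls and 39.5, 9.15 and 8.76 CPM in the knockdown (−0.42, adjusted p = 0.630, edgeR). For these last 2 KRAB genes replicate 1 was within or above the controls and replicates 2 and 3 were below them.

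The count of called genes depended on single libraries. Leaving out knockdown replicate 1 gave 8 of 8 past the threshold, 4 higher and 4 lower, where 65.9% of 15758 genes passed. Leaving out knockdown replicate 2 gave 2 (ZNF34 and ZNF16), where 27% of all genes passed. Leaving out MKN28 control replicate 1 or 3 gave 0, where 17.3% and 20.6% of all genes passed. Without control replicate 2 there were 2 (ZNF34 and ZNF517), where 33.6% of all genes passed. With library totals in place of TMM factors only ZNF250 was called, as lower, where 34.9% of all genes passed. Library totals moved the median of all genes to −0.92 and the share of higher genes among those called from 47.0% to 25.1%.

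**Figure D2:**
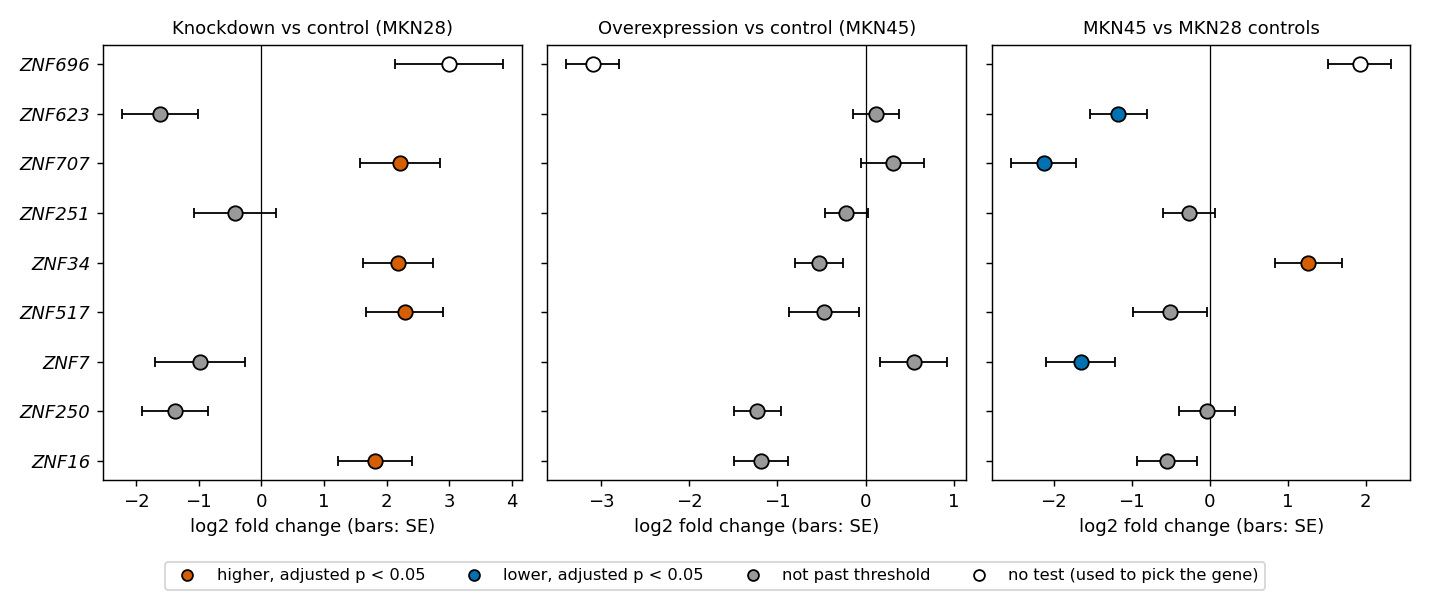
Log2 fold change of each gene with its standard error, in the knockdown, the overexpression and between control lines; colours give the edgeR call at an adjusted p under 0.05 and open circles mark ZNF696, which was chosen on these libraries. In the knockdown 4 genes are called higher, in the overexpression 0 are called, and between lines 1 is higher and 3 are lower.

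The sign of the knockdown log2 fold change followed the GC content of the transcripts. All 5 genes with a GC content of 51.1% to 64.1% (ZNF16, ZNF34, ZNF707, ZNF517 and ZNF696) had positive values, and all 4 with 43.5% to 49.4% (ZNF623, ZNF250, ZNF7 and ZNF251) had negative ones. The grouping was made after the values were seen. Over all genes tested, the 5721 with a GC content in the upper range had a median of 0.81, and 68.4% of them were positive. The 3316 genes in the lower range had a median of −0.49, and 38.3% were positive.

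This order was present in replicates 2 and 3 and not in replicate 1. Relative to the control mean, ZNF696, ZNF517 and ZNF707, the genes highest in GC, were at 3.76, 3.18 and 3.01 on the log2 scale in replicate 2 and at 3.37, 1.94 and 2.42 in replicate 3. In replicate 1 they were at −0.24, 1.203 and 0.24. ZNF623 and ZNF250, lowest in GC, were at −2.44 and −1.74 in replicate 2, at −2.20 and −1.28 in replicate 3 and at −0.64 and −0.98 in replicate 1. MKN28 control replicate 2 had the same order with small values, from −0.50 in ZNF623 to 0.41 in ZNF696.

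**Figure D3:**
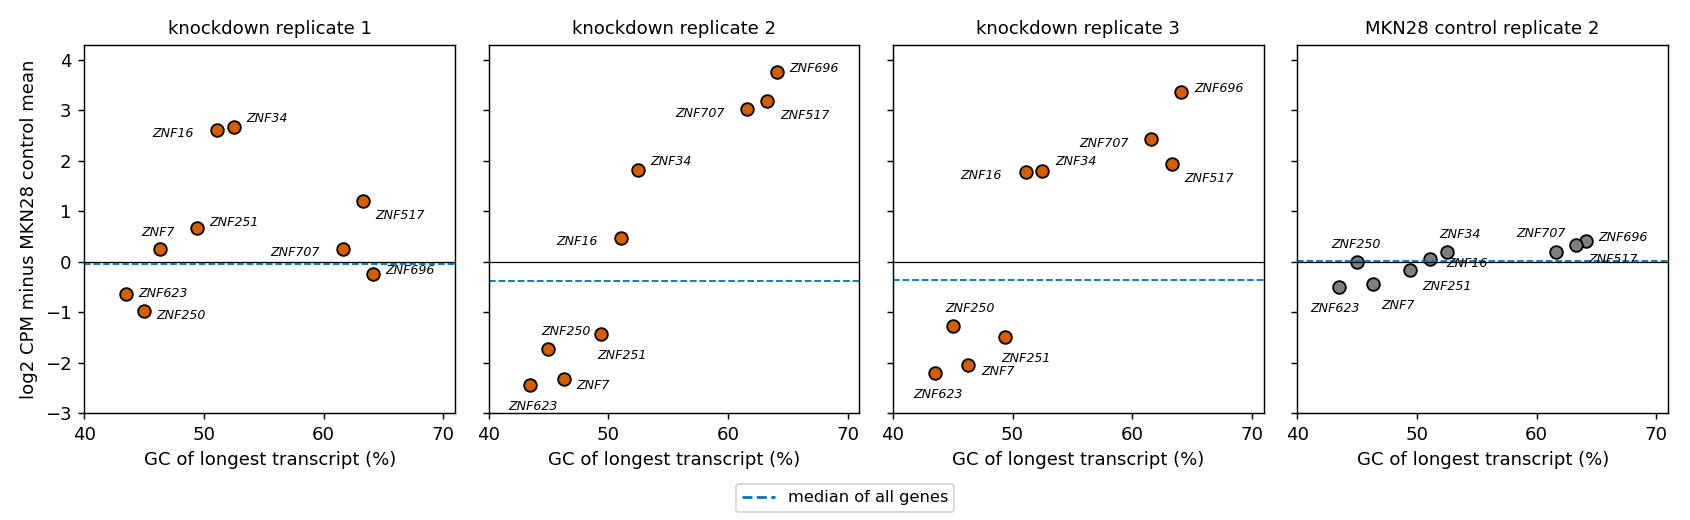
Log2 CPM of each of the 9 genes minus the MKN28 control mean, against the GC content of the longest transcript, in the 3 knockdown libraries and in MKN28 control replicate 2; the dashed line is the median of all genes. In knockdown replicates 2 and 3 the genes of high GC lie above 0 and those of low GC below it, which replicate 1 does not show.

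With the trend of each library with transcript length and GC content removed, the 4 called genes were again called, where 41.5% of all genes passed. The log2 fold change of ZNF707 was 1.14 (adjusted p = 0.0300), ZNF34 1.53 (0.0295), ZNF517 1.38 (0.00916) and ZNF16 1.53 (0.0258, all edgeR), and the value of ZNF696 was 1.76. These values were smaller than those of the main fit (2.22, 2.18, 2.29, 1.82 and 2.995 in the same order). The negative values of ZNF623, ZNF7 and ZNF250 turned to 0.32, 0.20 and 0.40, none past the threshold (adjusted p of 0.358 to 0.720, edgeR). The part of GC content in the results of the other genes was not tested further.

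In the overexpression, 0 of the 8 genes passed the threshold by edgeR, where 1.13% of 15833 genes did (0.935% higher, 0.196% lower). At an unadjusted p under 0.05 edgeR gave 2 lower genes, and DESeq2 called the same 2, ZNF250 and ZNF16. Over all genes, 4242 of 15833 had an unadjusted p under 0.05, and DESeq2 called 11.6%. The median log2 fold change of the 8 was −0.35, against −0.0022 over all genes. Overexpression and control libraries did not overlap for 4 of the 8, against 38.1% of all genes.

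ZNF250 was at 6.43, 7.39 and 7.03 CPM in MKN45 controls and at 2.46, 2.79 and 3.57 CPM with overexpression, all 3 below the controls. Its log2 fold change was −1.23 (SE 0.27, 2.34-fold lower, adjusted p = 0.0544, edgeR), just short of the threshold. ZNF16 was at 9.05, 16.0 and 8.497 CPM in controls and at 4.599, 4.90 and 5.09 CPM with overexpression (−1.19, SE 0.30, 2.28-fold lower, adjusted p = 0.0723, edgeR). Without MKN45 control replicate 2, both passed (adjusted p = 0.0338 and 0.0469, edgeR), where 8.26% of all genes did. Removal of the length and GC trend had the same effect, at −1.68 and −0.996 (adjusted p = 0.0236 and 0.03999, edgeR), where 7.94% of all genes passed.

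None of the remaining 6 genes passed. ZNF34 was at 3.66, 4.15 and 2.98 CPM in controls and 2.63, 2.23 and 2.54 CPM with overexpression (−0.53, adjusted p = 0.249, edgeR), with no overlap. ZNF7 was at 17.2, 5.58 and 15.7 CPM in controls and 17.3, 20.4 and 18.0 CPM with overexpression (0.54, adjusted p = 0.376, edgeR). The low control was replicate 2, and the other controls were close to the overexpression libraries. ZNF517 (−0.47), ZNF251 (−0.22), ZNF623 (0.12) and ZNF707 (0.31) had overlapping groups and adjusted p of 0.459 to 0.788 (edgeR). ZNF623 spread less among the overexpression libraries (26.9 ± 1.02 CPM) than among their controls (24.9 ± 8.13 CPM, n = 3 each).

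Between the control lines, 4 of the 8 genes other than ZNF696 passed the threshold, 1 higher and 3 lower in MKN45, where 41.8% of 16088 genes did (21.4% higher, 20.4% lower). Control libraries did not overlap for 4 of 8, against 52.3% of all genes. The median of the 8 was −0.53, against −0.04 over all genes. ZNF34 was higher in MKN45, at 3.596 ± 0.59 CPM against 1.501 ± 0.24 CPM (log2 fold change 1.26, SE 0.43, adjusted p = 0.0333, edgeR, n = 3 each). ZNF707 was lower, at 10.7, 9.85 and 4.05 CPM in MKN45 against 32.0, 41.2 and 35.5 CPM in MKN28 (−2.13, SE 0.42, 4.38-fold lower, adjusted p = 0.00139, edgeR), and was called in all 13 alternative settings.

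ZNF7 was lower in MKN45, at 12.8 ± 6.32 CPM against 39.4 ± 12.4 CPM (−1.65, SE 0.44, 3.15-fold lower, adjusted p = 0.0100, edgeR, n = 3 each). ZNF623 was lower as well, at 24.9 ± 8.13 CPM against 55.5 ± 15.1 CPM (−1.17, SE 0.37, adjusted p = 0.0218, edgeR, n = 3 each). The calls of ZNF34 and ZNF623 were less firm than that of ZNF707. ZNF34 was called in 6 of 13 alternative settings and ZNF623 in 8 of 13, and both were lost when MKN28 control replicate 1 or 3 or MKN45 control replicate 2 or 3 was left out (adjusted p of 0.0519 to 0.134, edgeR). ZNF250, ZNF251, ZNF517 and ZNF16 had log2 fold changes of −0.04 to −0.55 and adjusted p of 0.279 to 0.941 (edgeR).

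Whether more ZNF165 had an opposite and equal effect to less ZNF165 was tested in one fit of the 12 libraries, by adding the log2 fold change of the overexpression to that of the knockdown. Equal and opposite changes give a sum of 0. The sum of ZNF165 itself was 1.67 (SE 0.53, adjusted p = 0.0421, edgeR), so the changes made to it were of unequal size, and a sum away from 0 does not by itself show unequal responses to like changes. Less and more ZNF165 were also made in different lines, so line and direction cannot be told apart. The sum was past the threshold for 3 of 8 genes, against 17.5% of 17266 genes. ZNF707 had a sum of 2.58 (SE 0.77, adjusted p = 0.0353, edgeR) and ZNF34 of 1.68 (SE 0.56, adjusted p = 0.0496, edgeR), both through their higher level in the knockdown. ZNF250 had a sum of −2.56 (SE 0.52, adjusted p = 0.00809, edgeR), as it was lower both with less and with more ZNF165. Neither fall passed the threshold in its own comparison, and with length and GC trends removed the knockdown value was 0.40. For ZNF696, with no test, the sum was −0.05, and it ranged from −1.01 (library totals) to 0.48 (without knockdown replicate 1) over 18 alternative settings. The count was 1, ZNF250, in 9 of 12 fits that left out a single library. It was 7 in the fit without knockdown replicate 1, where 46.1% of all genes passed.

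Levels of different genes were compared per kb of exon. In MKN28 controls ZNF623 led with 7.77 CPM per kb, followed by ZNF707 (5.73), ZNF251 (5.05), ZNF7 (3.82) and ZNF16 (3.14). None of these neighbours differed beyond the ranges of their libraries. ZNF517 (1.21), ZNF250 (0.969), and then ZNF696 (0.681) and ZNF34 (0.676) came after gaps larger than the spread, ZNF696 and ZNF34 being alike. In MKN45 controls no gap exceeded the spread: the order ran from ZNF251 (4.26), ZNF623 (3.49), ZNF696 (2.57), ZNF16 (2.14) and ZNF34 (1.62) to ZNF707 (1.30), ZNF7 (1.25), ZNF250 (0.945) and ZNF517 (0.833). ZNF696 was thus at rank 8 of 9 in MKN28 controls and at rank 3 in MKN45 controls.

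With overexpression, ZNF696 was last of the 9 at 0.297 CPM per kb, not separated from ZNF250 (0.399). ZNF623 (3.76) and ZNF251 (3.63) led together, followed after a gap by ZNF7 (1.80) and ZNF707 (1.59), and then singly by ZNF34 (1.11), ZNF16 (0.928) and ZNF517 (0.593). In the knockdown the order was ZNF707 (27.8), ZNF16 (11.4), ZNF517 (6.11), ZNF696 (5.69), ZNF251 (3.87), ZNF34 (3.15), ZNF623 (2.62) and ZNF7 (2.01). The only gap beyond the spread there was the one to ZNF250 (0.384). With the length of the longest transcript in place of all exons, neighbours changed places, for example ZNF707 to rank 1 and ZNF623 to rank 3 in MKN28 controls.

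The band holds other zinc-finger genes, ZFP41, GLI4, ZC3H3, ZNF252P and SCRT1. SCRT1, a neuronal repressor, had at most 4 counts in any library and was not tested. In the knockdown 1 of 4 rose and 1 fell, where 40.8% of all genes were called. ZC3H3, a CCCH-type protein of mRNA export, went from 52.3 ± 20.2 to 167 ± 93.1 CPM (log2 fold change 1.62, adjusted p = 0.0384, edgeR, n = 3 each). The pseudogene ZNF252P went from 17.1 ± 8.24 to 2.79 ± 1.59 CPM (−2.66, adjusted p = 0.0119, edgeR, n = 3 each). GLI4 (0.81) and ZFP41 (0.10) did not pass. With replicate 1 as the only knockdown library the values were 0.44 for ZC3H3 and −1.88 for ZNF252P, and 0 of the 4 were called by edgeR, 1 of them being lower at an unadjusted p under 0.05. In the overexpression and between lines 0 of 4 passed by edgeR, by DESeq2 and at an unadjusted p under 0.05. Over all genes edgeR called 1.13% and 41.8% there, and DESeq2 11.6% and 44.7%.

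Between ZNF696 and ZNF16 lie 57 other protein-coding genes. In the knockdown 24 of 51 tested were higher and 5 lower, with a median log2 fold change of 1.36 against −0.20 over all genes. The share called was 56.9%, against 40.8% of all genes (19.2% higher, 21.6% lower). The median stayed positive with library totals (0.40) and after removal of the length and GC trend (0.52, 20 higher and 9 lower). With replicate 1 as the only knockdown library the median was −0.00096, with 4 higher and 6 lower. The 3 with the highest mean over all 12 libraries were RPL8, PLEC and PUF60, a rank that RPL8 and PUF60 owe in part to their knockdown levels, so their changes are given with no test. RPL8, a ribosomal protein gene, stood at 825 ± 349 CPM in MKN28 controls and 8259 ± 5267 CPM in the knockdown, and the splicing factor PUF60 at 194 ± 49.9 and 1854 ± 1089 CPM (n = 3 each). Their log2 fold changes were 3.28 and 3.21, and 1.69 and 1.76 with replicate 1 as the only knockdown library. PLEC, the gene of the cytoskeletal linker plectin, stood at 1231 ± 277 and 811 ± 386 CPM and was above RPL8 in the 3 groups other than the knockdown.

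In the overexpression 0 of 50 of these neighbours passed by edgeR, against 1.13% of all genes. At an unadjusted p under 0.05, 3 were higher and 11 lower, and DESeq2 called 2 higher and 2 lower. Of all 15833 genes, 4242 had an unadjusted p under 0.05, and DESeq2 called 11.6%. The median of the neighbours was −0.38 (−0.04 with the trend removed). ZNF696, at −3.09, lay below every one of them, but it was chosen for its fall in this comparison. Between lines 3 of 52 were higher and 13 lower in MKN45, with a median of −0.43. The share called was 30.8%, against 41.8% of all genes.

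**Figure D4:**
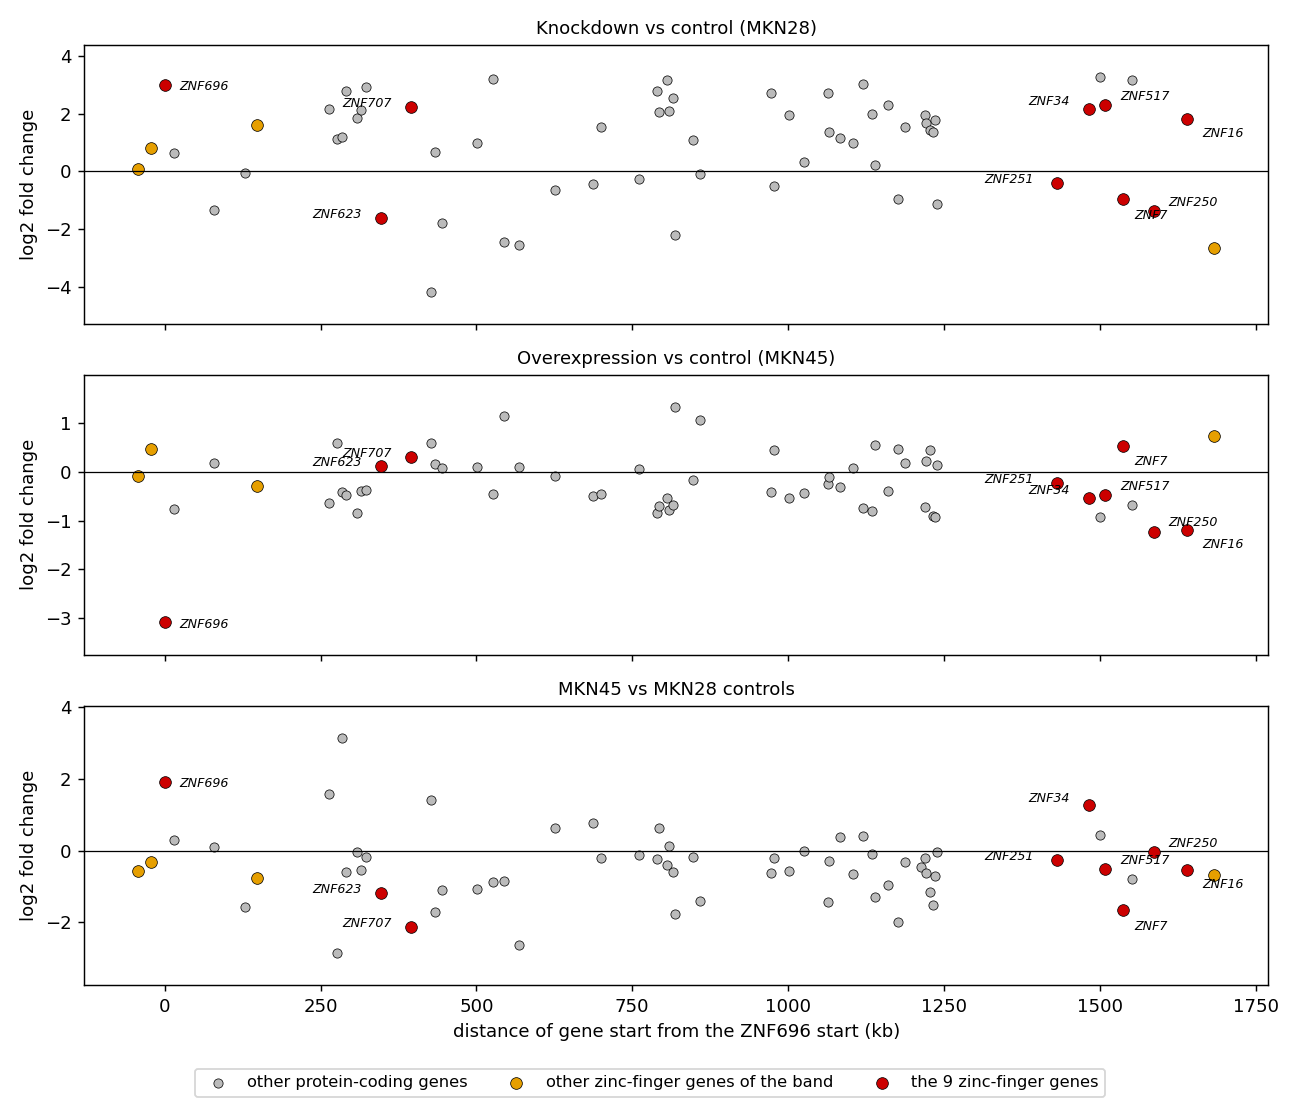
Log2 fold change of the 9 genes, of other zinc-finger genes of the band and of the other protein-coding genes between them, against the distance of each gene start from that of ZNF696, for the 3 comparisons. In the overexpression ZNF696 (−3.09), which was chosen for its fall there, lies apart from its neighbours. In the knockdown the 9 genes fall on both sides of 0. So do the other protein-coding genes, of which 24 of 51 tested are called higher and 5 lower.

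ZNF genes of other chromosomes went the other way in the knockdown. Of 422 tested, 42 were higher and 144 lower, with a median of −1.20 against −0.20 over all genes. The share called was 44.1%, against 40.8% of all genes (19.2% higher, 21.6% lower). With the length and GC trend removed 72 were higher and 74 lower (median −0.10). With replicate 1 as the only knockdown library 26 were higher and 61 lower (median −0.67). Highest in mean level over all 12 libraries, knockdown included, were ZNF787, ZNF768 and ZNF207, a mitotic protein, with log2 fold changes of 4.01, 1.93 and 0.85, given with no test for that reason. With replicate 1 as the only knockdown library ZNF787 and ZNF768 stood at 2.39 and 0.87. In the overexpression 4 of 411 were higher and 0 lower by edgeR, 0.973% against 1.13% of all genes, with a median of 0.24. At an unadjusted p under 0.05, 88 were higher and 28 lower, and DESeq2 called 42 higher and 8 lower. Over all genes, 4242 of 15833 had an unadjusted p under 0.05, and DESeq2 called 11.6%. Between lines 34 of 444 were higher and 149 lower in MKN45, with a median of −0.67. The share called was 41.2%, against 41.8% of all genes (21.4% higher, 20.4% lower).

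Of the partners through which KRAB proteins repress, 9 of 17 tested fell in the knockdown and 1 rose. Over all genes 21.6% were lower and 19.2% higher. The median of the 17 was −1.44, against −0.20 over all genes. TRIM28, the scaffold that binds the KRAB domain, rose from 466 ± 80.6 to 1604 ± 1038 CPM (log2 fold change 1.73, adjusted p = 0.0361, edgeR, n = 3 each). SETDB1, its histone methyltransferase, fell from 35.5 ± 1.78 to 13.5 ± 6.57 CPM (−1.44, adjusted p = 0.0485, edgeR, n = 3 each). The SETDB1 partner ATF7IP (−3.34, adjusted p = 0.00371), the HP1 protein CBX5 (−2.29, 0.0103), the remodellers CHD4 (−2.13, 0.00563) and CHD3 (−1.31, 0.0382) and the HUSH components TASOR (−2.87, 0.00500) and MPHOSPH8 (−2.61, 0.0160) fell too (edgeR). MORC2, which works with HUSH (−1.67, adjusted p = 0.0195), and UHRF1, which guides DNA methylation (−1.65, 0.0303), completed the list of falling genes (edgeR). With replicate 1 as the only knockdown library TRIM28 stood at 0.26 (adjusted p = 0.701) and SETDB1 at −0.73 (0.324), and the other 8 at −3.35 (TASOR) to −1.09 (CHD3). Of these 10, ATF7IP, CHD4 and TASOR were past the threshold then (adjusted p of 0.00942 to 0.0312, edgeR).

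Among those not past the threshold in the knockdown were HDAC1 (0.14), HDAC2 (−1.65), DNMT1 (−0.97), CBX3 (−0.59), PPHLN1 (−1.11) and SUMO2 (0.46). The balance of this group moved with the settings: with the length and GC trend removed 2 were higher and 5 lower with a median of 0.07, and with replicate 1 as the only knockdown library 1 was higher and 3 lower with a median of −0.88. In the overexpression 0 of 18 passed by edgeR, against 1.13% of all genes. At an unadjusted p under 0.05, 5 were higher and 1 lower, and DESeq2 called 2 higher. By the same measures, 4242 of all 15833 genes had an unadjusted p under 0.05, and DESeq2 called 11.6%. Between lines 2 of 18 were higher and 2 lower in MKN45, 22.2% against 41.8% of all genes. Among them, HDAC1 was higher (1.35, adjusted p = 0.00362, edgeR) and CHD4 was lower (−0.98, adjusted p = 0.0311, edgeR). CBX1, the gene of another HP1 protein, stood at 120 ± 28.2 CPM in MKN45 controls and 0.0336 ± 0.0582 CPM in MKN28 controls (n = 3 each), where it was at or under the floor of 3 counts.

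Annotated neighbours overlap some of the 9 genes, and the strand setting of the counting is not given in the sources used here. ZNF7 shares 389 exon bases with COMMD5 on the other strand, which had 125 to 3186 counts and a knockdown log2 fold change of 3.16, against −0.97 for ZNF7. ZNF707 shares 137 and 59 exon bases with ENSG00000254574 and CCDC166, which had at most 3 counts in any library. An antisense gene, ENSG00000272172, lies over ZNF696 with 0 shared exon bases and had 1 to 18 counts. Its highest count, 18, was in knockdown replicate 2, the library with the most ZNF696 counts.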

How the data were processed

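Read counts per Ensembl gene were used as the authors deposited them, 1 whole-number column for each of 12 libraries. HISAT2 and StringTie were used per the submitters' processing notes, without a version. How reads were counted, with which strand setting, build and annotation, is not given in the sources used here. A build or an annotation other than GENCODE 29 could move exon lengths, GC content and overlaps.

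Groups came from the labels. The members and lists were chosen with earlier results of these data known. Each comparison was fitted on the whole table with edgeR 4.0.16 in R 4.3.3 (quasi-likelihood test, TMM, filterByExpr with minimum count 10 and total 15, Benjamini-Hochberg adjusted p under 0.05), and all 9 members passed the filter in each. Knockdown and overexpression were fitted on the 6 libraries of their line, controls of both lines on 6, and the difference of effects on 12. Each p-value was computed here, none by the authors. Alternatives were DESeq2 1.42.0, library totals, upper-quartile factors, no filter, a replicate block, a fit of 12 libraries, each library left out, and per-library length and GC trends removed (natural splines, 5 degrees of freedom each). For the lists of other genes and the genes named from them, the alternatives were added after seeing the data. The code was tested on simulated data.

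CPM per kb used the length of all exons of a gene. A count of 0 allows up to 3 counts, or 0.129 to 0.411 CPM. The genes named are the 9 members, ZNF165, the genes of the band and KRAB lists (1 of which is not reported here), the 3 of each other list with the highest mean CPM over 12 libraries and the 5 most like ZNF696. TOP1MT, among the latter, also lies in the band, and COMMD5, CCDC166, ENSG00000254574 and ENSG00000272172 were named for their overlap with members. Same-numbered control libraries of both lines had correlations of 0.238, 0.472 and 0.265 across genes. Unlike-numbered ones ranged from −0.369 to 0.241, so the ranges overlapped. No label says that the numbers pair the lines' controls, and the main fit of the lines used no pairing. In the other 2 comparisons same-numbered libraries did not all correlate positively (lowest correlations −0.306 and −0.0628). With the replicate block, the comparison of lines called the same members other than ZNF696, for which no call is given.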

Additional observations from a re-analysis of the deposited data

Results flagged for a closer look

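For 3 genes, the sum of the knockdown log2 fold change in MKN28 and the overexpression log2 fold change in MKN45 was away from 0 (edgeR quasi-likelihood test over 12 libraries). Such a sum shows that the changes were not equal and opposite, and line, direction and size of the ZNF165 change cannot be told apart in it. ZNF707 had a sum of 2.58 (adjusted p = 0.0353) and ZNF34 of 1.68 (adjusted p = 0.0496), both higher in the knockdown with no call in the overexpression. ZNF250 had a sum of −2.56 (adjusted p = 0.00809), with log2 fold changes of like sign and size, −1.38 and −1.23. Neither passed the threshold in its own comparison (adjusted p = 0.0554 and 0.0544, edgeR). With length and GC trends removed they were 0.40 and −1.68, no longer of like sign. ZNF250 passed in 17 of 18 alternative settings (the exception was the fit with length and GC trends removed, −1.38, adjusted p = 0.0506), ZNF707 in 8 and ZNF34 in 3.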

How the results depend on the processing

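Directions were stable for ZNF696 in the overexpression and between lines, and for ZNF707, ZNF34, ZNF517 and ZNF16 in the knockdown, in every setting tried. The counts of members past the threshold moved. In the knockdown (4) there was 1 with library totals, 2 without replicates 2 and 3 together, and 0 to 8 when each library was left out. In the overexpression (0) there were 2 with DESeq2, 1 with no filter, 2 with length and GC trends removed, and 0 to 2 with libraries left out. Between lines no call is counted for ZNF696, whose own difference is not independent of its choice. ZNF623, ZNF707, ZNF34 and ZNF7 passed in the main fit, and of these only ZNF707 and ZNF34 in the fit of 12 libraries. With libraries left out, ZNF707 and ZNF7 passed in each fit, and ZNF623 and ZNF34 only in some. For the difference of effects (3) there was 1 with library totals and 1 to 7 with libraries left out. With the replicate block the counts were 5 in the knockdown (ZNF623 added, adjusted p = 0.0111, edgeR), 0 in the overexpression and 3 for the difference, where ZNF517 took the place of ZNF34. Between lines the block called the same members other than ZNF696 as the main fit. Directions turned with length and GC trends removed for ZNF623 (0.32), ZNF7 (0.20) and ZNF250 (0.40) in the knockdown, ZNF623 (−0.39) in the overexpression, ZNF250 (0.057) between lines and ZNF7 (0.47) in the difference. Without knockdown replicates 2 and 3 they turned for ZNF696 (−0.26), ZNF251 (0.68) and ZNF7 (0.21). Between lines ZNF250 turned with upper-quartile factors (0.105), and with libraries left out it lay between −0.118 and 0.0425, positive without MKN28 control replicate 3 or MKN45 control replicate 1. In the overexpression, with libraries left out, ZNF623 (−0.0246 to 0.405) and ZNF517 (−0.722 to 0.112) turned without MKN45 control replicate 2, and ZNF707 (−0.0207 to 0.537) without replicate 3. In the difference ZNF7 (−1.72 to 0.0035) turned without knockdown replicate 2. Over all genes, 6092 passed in the knockdown, 2642 to 10378 with libraries left out and 3352 without replicates 2 and 3. In the overexpression 179 passed, 1834 with DESeq2, 722 with no filter, 1250 with trends removed, 8 with the replicate block, 3 in the fit of 12 libraries and 1 to 1338 with libraries left out. For the difference 3017 passed, 4730 with DESeq2 and 1163 to 8210 with libraries left out. The share of higher genes among those called went from 47.0% to 57.6% with trends removed in the knockdown, from 82.7% to 49.2% with trends removed and 56.6% with DESeq2 in the overexpression, and from 46.3% to 19.7% with library totals in the difference. The causes were not tested. With 22 to 71 counts, ZNF696 in MKN28 controls and overexpression libraries was read at low depth.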
